A study of Mus musculus with 12 samples.

Results

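The 9 genes Cr2, Fcer2a, Ms4a1, Cd79a, Cd79b, Pax5, Spib, Ebf1 and Fcrla, which encode surface proteins and regulators of B cells, were followed among the 55401 genes counted in tumor-associated macrophages (TAMs). They were picked by symbol after their counts in both comparisons of the study had been seen, so their own levels are given here as a description, without p-values. TAMs were sorted from subcutaneous B16-F10 melanomas as CD45+CD11b+Ly6C-Ly6G-F4/80+ cells, and bulk RNA-seq gave 12 libraries, 3 in each of 4 groups. WT TAMs came from AMPKfl/fl mice and AMPK-KO TAMs from AMPKfl/flLyz2cre/cre mice, as the sample titles give them (the genotype fields of AMPK-KO replicates 2 and 3 write Lyz3cre/cre and Lyz4cre/cre), both 15 days after implantation, while early-stage TAMs (day 8) and late-stage TAMs (day 15) came from mice whose genotype the labels give as WT. The methods describe 5-week-old mice of C57BL/6 background, and the labels give the treatment of every sample as "Non". The floxed alleles are shared by WT and AMPK-KO mice, and the Cre that deletes them is driven by Lyz2 in myeloid cells, not in B cells. Whether a sample pooled several animals is not stated, so the spread between samples may be partly technical.

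B cells are recognized by their antigen receptor, in which CD79A and CD79B form the pair that carries the signal of the surface immunoglobulin into the cell. CR2 (CD21) binds complement-tagged antigen, FCER2A (CD23) binds IgE, and MS4A1 (CD20) is a membrane protein of mature B cells that is lost in plasma cells. EBF1 and PAX5 switch on and then maintain the B cell program, in which Cd79a is a known target, and SPIB is an Ets factor of B cells. In tumors, B cells gather at the margin and in lymphoid aggregates, and some of these genes are also used elsewhere, Cr2 and Fcer2a by follicular dendritic cells, Spib by plasmacytoid dendritic cells and Ebf1 by stromal cells.

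The promoters of Cd79a and Spib are shown because Cd79a had among the lowest and Spib among the higher shares of its WT level in AMPK-KO TAMs, and because short motifs of B cell regulators lie in them. RefSeq promoter windows (GRCm38.p6, the 250 bases before a start site) were on hand for 7 of the 9 genes. The stretch of Cd79a lies at chr7:24897247-24897380 on the plus strand. Its capitals mark CAGGTG, the E box bound by E proteins, and TTCCTC, the reverse complement of the PU box GAGGAA bound by PU.1 and SPIB. The stretch of Spib lies at chr7:44532088-44532321 on the minus strand, and its capitals mark CCCCTGGGG, in which 2 copies of the EBF1 core CCCNNGGG overlap. Both are written 5′ to 3′ on the strand of the gene and stop short of the annotated exons.
Cd79a: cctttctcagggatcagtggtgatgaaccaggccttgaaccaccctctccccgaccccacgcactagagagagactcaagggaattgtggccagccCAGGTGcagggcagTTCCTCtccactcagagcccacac
Spib: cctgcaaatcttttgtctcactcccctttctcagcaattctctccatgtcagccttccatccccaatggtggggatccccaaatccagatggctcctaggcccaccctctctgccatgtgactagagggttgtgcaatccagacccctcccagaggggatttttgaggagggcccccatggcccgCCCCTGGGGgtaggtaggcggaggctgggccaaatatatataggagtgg

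Searched on both strands of all 32851 mouse windows of the same length, CAGGTG was found in 17.2%, GAGGAA in 23.3%, CCCNNGGG in 11.8% and the octamer ATTTGCAT, bound by POU2F2 with POU2AF1, in 1.6%. None of the windows of the 7 genes held the octamer. The window of Pax5, those at start sites 1 and 3 of Fcer2a and that at start site 1 of Ebf1 held no searched motif. These matches describe the letters of a window and say nothing about binding in TAMs.

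On GRCm38, Cd79a (ENSMUSG00000003379.7) spans chr7:24897381-24902197 and Spib (ENSMUSG00000008193.13) chr7:44525993-44532071. Cd79b (ENSMUSG00000040592.11) lies at chr11:106311341-106314762 and Fcer2a (ENSMUSG00000005540.10) at chr8:3681737-3694175. Ebf1 (ENSMUSG00000057098.14, chr11:44617317-45008091), Ms4a1 (ENSMUSG00000024673.9, chr19:11249675-11266241) and Pax5 (ENSMUSG00000014030.15, chr4:44524757-44710487) each overlap an antisense gene. Fcrla (ENSMUSG00000038421.13, chr1:170917576-170927583) overlaps the processed pseudogene Gm2962 on its own strand. The setting of strand in the counting is not given in the sources used here, so reads of these 4 genes and of their partners may not have been separated. Cr2 (ENSMUSG00000026616.16) spans chr1:195136811-195176880 in RefSeq.

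Library totals ranged from 71019494 to 84470374 counts. Prkaa1, the gene of the AMPKα1 subunit, had 4535 to 5165 counts in WT and 3285 to 3467 in AMPK-KO TAMs. Lyz2, the gene into which the Cre is inserted, had 671 to 975 counts in WT and 676 to 1088 in AMPK-KO TAMs, but 88212 to 249165 in the libraries of the other table, so it did not separate the 2 genotypes, and group names here are those of the sample titles. Counts of Uty, Kdm5d, Eif2s3y and Ddx3y, which lie on the Y chromosome, summed to 9229 to 12183 in WT and AMPK-KO TAMs, 3435 to 4035 in early-stage TAMs and 0 to 4 in late-stage TAMs, while the methods name female mice. Sex and day therefore cannot be told apart in the comparison of stages. The 10 macrophage markers were present in every library, with a summed level of 10680 to 18280 CPM (counts scaled to library size with TMM factors).

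In AMPK-KO TAMs, Cr2, Fcer2a, Ms4a1, Cd79a, Pax5, Spib and Ebf1 were lower than in WT TAMs without overlap of the 3 libraries of each group, Cd79b was higher without overlap, and Fcrla overlapped. The level left in AMPK-KO TAMs ran from 0.431% of the WT level for Cr2 to 66.8% for Fcrla, and Cd79b stood at 131.3%. Among all 17532 genes tested, 18.4% were lower and 18.8% higher without overlap. With edgeR, 9.78% of all genes were lower and 11.3% higher at an adjusted p under 0.05, and the same 7 and 1 of the 9 genes were among them, from which nothing is read because this contrast was known when the genes were picked. In bulk RNA, fewer cells of a type and less RNA per cell cannot be told apart.

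Among the surface receptors, Cr2 had 138, 109 and 199 counts in the WT libraries and 0, 2 and 0 in the AMPK-KO libraries. Only 1 AMPK-KO library held any read of it. Scaled to library size, the 2 counts against 446 were 0.431% of the WT level, with a 95% interval of 0.0521% to 1.57% (exact binomial, counting error only). Fcer2a had 134, 238 and 301 counts in WT and 12, 16 and 0 in AMPK-KO TAMs. AMPK-KO replicate 3 lacked it, and the summed level was 4.0% of WT (95% interval 2.64% to 5.84%). The log2 fold change of Fcer2a was −4.60 (SE 0.67), and between −5.20 without AMPK-KO replicate 2 and −4.01 without AMPK-KO replicate 3. Ms4a1 had 296, 259 and 202 counts in WT and 17, 45 and 31 in AMPK-KO TAMs. Every AMPK-KO library still held it, at 3.39 ± 0.833 CPM in WT and 0.392 ± 0.165 CPM in AMPK-KO TAMs (mean ± SD, n = 3), a log2 fold change of −3.10 (SE 0.35).

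The receptor pair moved apart. Cd79a had 320, 386 and 457 counts in WT and 7, 8 and 10 in AMPK-KO TAMs. The libraries of a group lay close to each other, at 5.13 ± 0.610 CPM and 0.106 ± 0.0155 CPM, and the log2 fold change was −5.57 (SE 0.25). Cd79b had 1083, 1123 and 1285 counts in WT and 1438, 1611 and 1719 in AMPK-KO TAMs. All AMPK-KO libraries were above all WT libraries, at 20.3 ± 0.914 CPM against 15.5 ± 0.374 CPM, a log2 fold change of 0.39 (SE 0.08). The ratio of Cd79b to Cd79a CPM was 2.81 to 3.38 in WT libraries and 171.9 to 205.4 in AMPK-KO libraries. In the early-stage and late-stage libraries the ratio lay between 2.81 and 6.17, so the wide gap was seen in the AMPK-KO libraries and in none of the other 9.

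**Figure D1:**
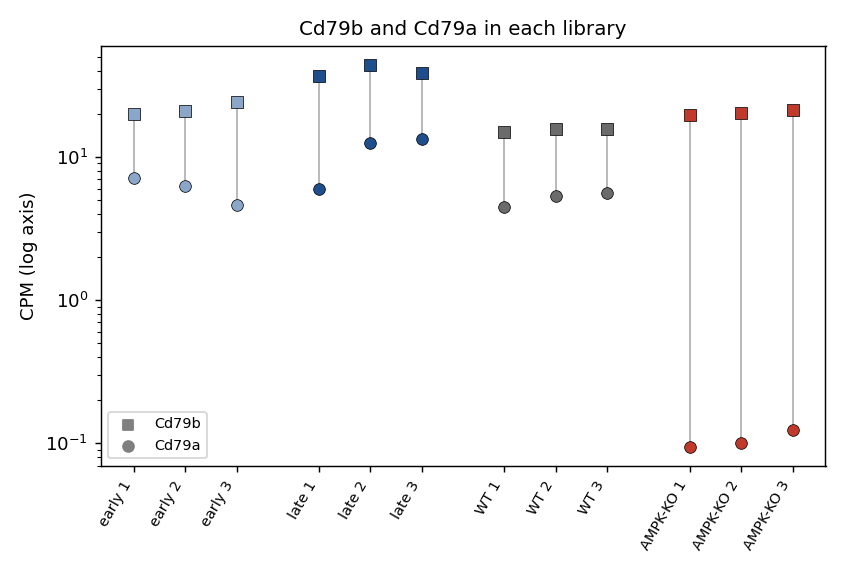
CPM (log axis) of Cd79b (squares) and Cd79a (circles) in each of the 12 libraries, joined by a line per library and colored by group. Cd79b exceeded Cd79a by 2.81 to 6.17 times in the early-stage, late-stage and WT libraries and by 171.9 to 205.4 times in the 3 AMPK-KO libraries.

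Of the regulators, Pax5, which maintains B cell identity, had 262, 182 and 266 counts in WT and 0, 0 and 8 in AMPK-KO TAMs. Its reads in AMPK-KO TAMs came from replicate 3 alone, and the summed level was 1.08% of WT (95% interval 0.466% to 2.15%). Spib had 244, 188 and 280 counts in WT and 80, 49 and 115 in AMPK-KO TAMs. Every AMPK-KO library held it, at 1.04 ± 0.408 CPM against 3.14 ± 0.467 CPM in WT, a log2 fold change of −1.59 (SE 0.30). Ebf1 had 129, 87 and 146 counts in WT and 43, 61 and 62 in AMPK-KO TAMs. The groups lay nearer to each other than for Pax5, at 1.60 ± 0.338 and 0.704 ± 0.105 CPM, and the log2 fold change was −1.18 (SE 0.30). Fcrla, which encodes an intracellular Fc receptor-like protein of B cells, had 62, 137 and 112 counts in WT and 105, 57 and 54 in AMPK-KO TAMs. Scaled to library size, AMPK-KO replicate 1 (1.42 CPM) lay between WT replicate 3 (1.37 CPM) and WT replicate 2 (1.90 CPM), and the log2 fold change of −0.56 (SE 0.40) was small against the spread. Without AMPK-KO replicate 1 it was −0.996, and 8 of the 9 genes were then lower without overlap, beside 22.1% of all genes.

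**Figure D2:**
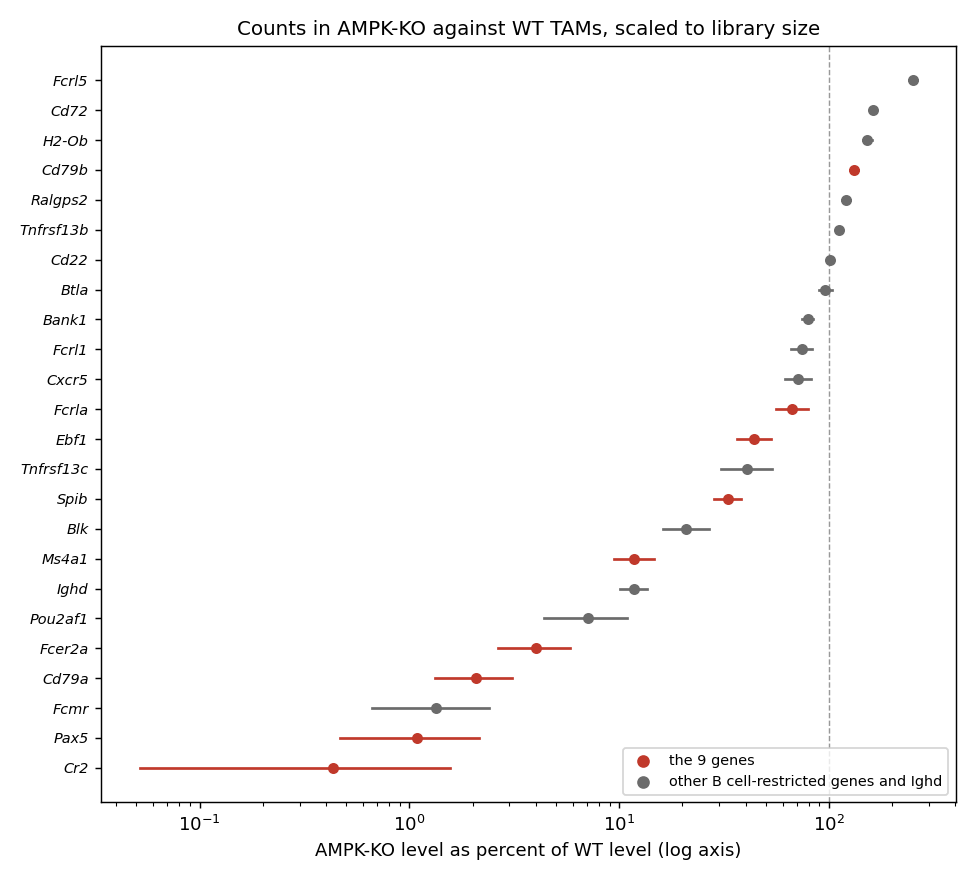
Level in AMPK-KO TAMs as percent of the WT level (log axis) for the 9 genes (red) and for other B cell-restricted genes and Ighd (grey), from counts summed over 3 libraries per group and scaled to library size, with bars for the 95% counting interval; genes with fewer than 100 WT counts and genes not reported here are left out. The 9 genes run from Cr2 at 0.431% to Cd79b at 131.3%, and the dashed line marks the WT level.

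Summed over the 8 genes other than Cd79b, WT libraries held 21.96 to 24.08 CPM and AMPK-KO libraries 2.97 to 3.58 CPM. With Cd79b added, the sums were 37.0 to 39.8 and 23.1 to 24.8 CPM. Cd79b therefore made up the larger part of the reads of the 9 genes in AMPK-KO TAMs.

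Between stages, all 9 genes had a higher mean level in late-stage than in early-stage TAMs, with log2 fold changes from 0.30 for Ebf1 to 1.09 for Cr2. Fcer2a, Cd79b, Pax5 and Fcrla did so without overlap of the libraries, while Cr2, Ms4a1, Cd79a, Spib and Ebf1 overlapped. Of all 17630 genes tested, 15.6% were higher without overlap and 15.6% lower. With edgeR, 4.31% of all genes were higher and 4.88% lower at an adjusted p under 0.05, and 3 of the 9 genes (Fcer2a, Cd79b and Pax5) were among the higher and 0 among the lower. Both DESeq2 and edgeR at an unadjusted p under 0.05 put 5 of them among the higher and 0 among the lower, and nothing is read from these counts for the reason given above.

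Late-stage replicate 1 stood below the other two late-stage libraries for 8 of the 9 genes, the exception being Fcrla. The 8 genes other than Cd79b summed to 24.79, 25.41 and 29.18 CPM in early-stage TAMs and to 28.51, 52.32 and 52.10 CPM in late-stage TAMs. Without late-stage replicate 1, a choice made after seeing the data, all 9 genes were higher without overlap, beside 19.8% of all genes. Leaving out any other library of the 2 stages gave 4 or 5 genes.

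Cr2 had 134, 106 and 249 counts in early-stage and 205, 499 and 341 in late-stage TAMs. Early-stage replicate 3 exceeded late-stage replicate 1, and the means were 2.00 ± 0.884 and 4.27 ± 1.90 CPM, a log2 fold change of 1.09 (SE 0.38). Fcer2a had 209, 160 and 305 counts in early-stage and 332, 524 and 579 in late-stage TAMs. The lowest late-stage library lay just above the highest early-stage library, the means being 5.84 ± 1.65 and 2.76 ± 0.834 CPM and the log2 fold change 1.08 (SE 0.28). Ms4a1 had 277, 387 and 500 counts in early-stage and 349, 661 and 603 in late-stage TAMs. Late-stage replicate 1 lay inside the early-stage range, and the log2 fold change of Ms4a1 was 0.45 (SE 0.28).

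Both genes of the receptor pair had higher means in late-stage TAMs, though they did not follow each other library by library. Cd79a had 589, 487 and 382 counts in early-stage and 499, 1003 and 1103 in late-stage TAMs. Late-stage replicate 1 was again inside the early-stage range, and the log2 fold change of Cd79a was 0.82 (SE 0.28). Cd79b had 1656, 1615 and 2006 counts in early-stage and 3080, 3505 and 3182 in late-stage TAMs. All late-stage libraries, replicate 1 included, lay above all early-stage libraries, at 39.7 ± 3.69 against 21.7 ± 2.24 CPM, and the log2 fold change of 0.87 (SE 0.11) had the smallest error of the 9. Cd79b was thus higher in both comparisons, and Cd79a was lower in AMPK-KO and higher in late-stage TAMs.

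Pax5 had 307, 264 and 409 counts in early-stage and 461, 712 and 716 in late-stage TAMs. The groups did not overlap, and the log2 fold change was 0.93 (SE 0.22). Spib had 295, 287 and 281 counts in early-stage and 280, 402 and 535 in late-stage TAMs. Its early-stage libraries were close to each other at 3.56 ± 0.157 CPM and its late-stage libraries were not, at 4.94 ± 1.57 CPM. Ebf1 had 154, 161 and 183 counts in early-stage and 123, 265 and 233 in late-stage TAMs. Late-stage replicate 1 was the lowest of all 6 libraries, and the log2 fold change of 0.30 (SE 0.30) was 0.06 without late-stage replicate 2 and 0.58 without late-stage replicate 1. Fcrla had 88, 113 and 105 counts in early-stage and 146, 123 and 193 in late-stage TAMs, with a log2 fold change of 0.56 (SE 0.28).

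**Figure D3:**
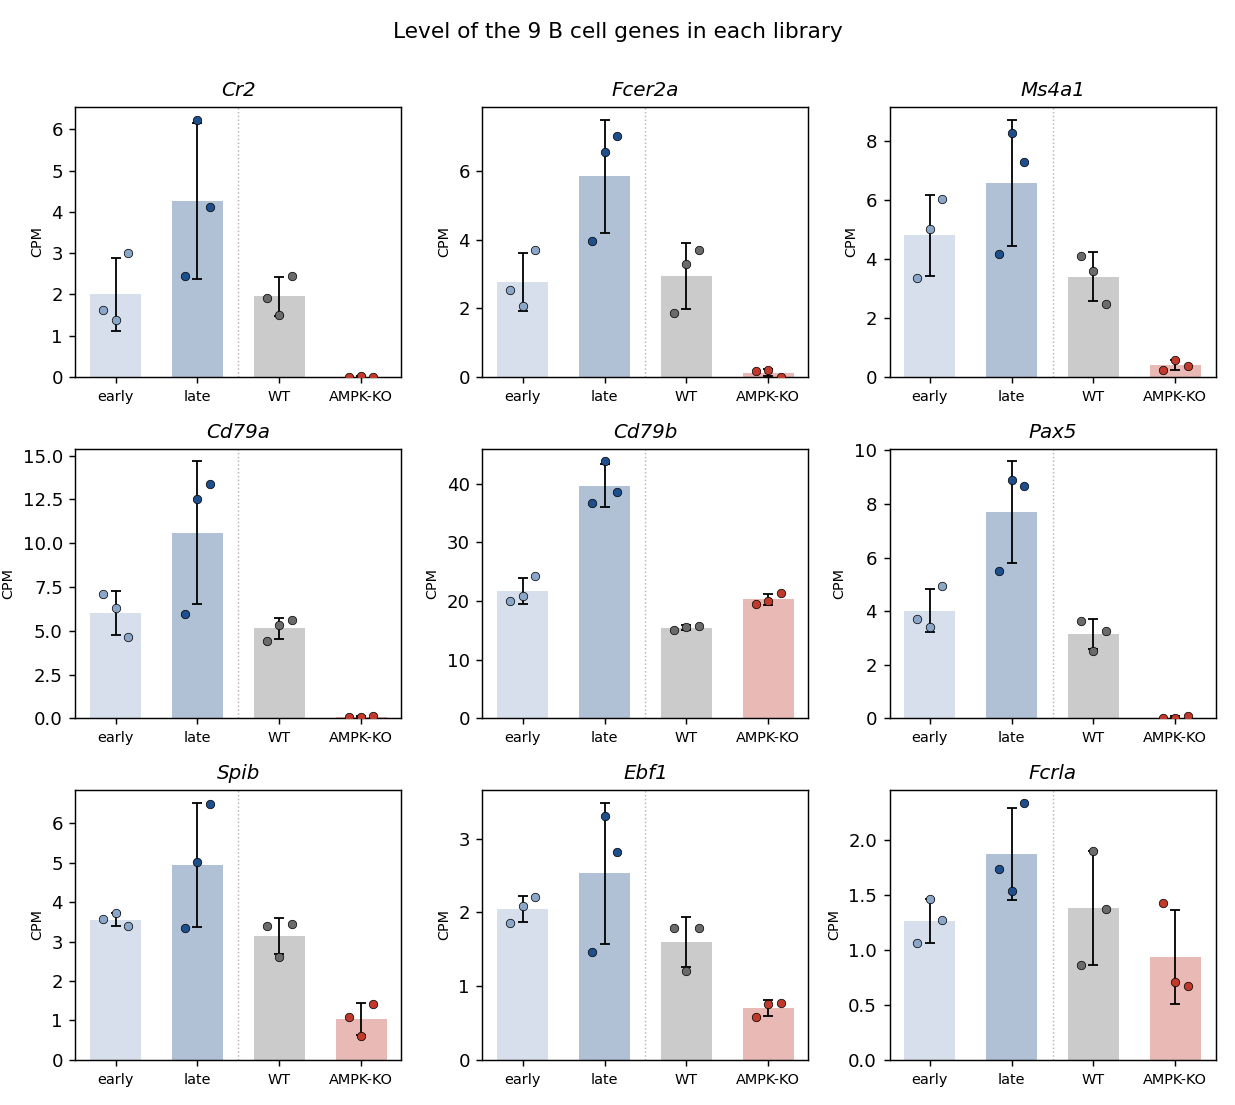
CPM of each of the 9 genes in the 3 libraries (points) of the early-stage, late-stage, WT and AMPK-KO groups, with bars for the mean and whiskers for the SD; the dotted line parts the 2 count tables, which were scaled separately. Cd79b is the gene whose AMPK-KO mean (20.3 CPM) is above its WT mean (15.5 CPM), and the lowest late-stage point of 8 genes is replicate 1.

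To compare the genes with each other, levels were divided by the length of the merged exons in kilobases, which was available for all but Cr2. In WT TAMs the order of levels was Cd79b (10.8 ± 0.261 CPM per kb), Cd79a (3.52 ± 0.419), Spib (1.10 ± 0.163), Fcer2a (0.954 ± 0.312), Fcrla (0.789 ± 0.297), Ms4a1 (0.548 ± 0.135), Pax5 (0.355 ± 0.0642) and Ebf1 (0.164 ± 0.0347). The SD ranges of neighbors overlapped from Spib to Pax5 and did not between Cd79b and Cd79a, Cd79a and Spib, or Pax5 and Ebf1. In AMPK-KO TAMs the order of levels was Cd79b (14.2 ± 0.639 CPM per kb), Fcrla (0.535 ± 0.243), Spib (0.363 ± 0.142), Cd79a (0.0728 ± 0.0106), Ebf1 (0.0721 ± 0.0107), Ms4a1 (0.0633 ± 0.0267), Fcer2a (0.0390 ± 0.0343) and Pax5 (0.00373 ± 0.00646). Fcrla and Spib could not be separated by their spread, nor could any neighbors from Cd79a to Pax5, while Cd79b and Fcrla, and Spib and Cd79a, lay apart. Cd79a, second in WT TAMs, was thus level with Ebf1 in AMPK-KO TAMs. In the other table Cd79b and Cd79a again led, with 15.2 ± 1.57 and 4.13 ± 0.873 CPM per kb in early-stage and 27.7 ± 2.58 and 7.28 ± 2.79 CPM per kb in late-stage TAMs, and Ebf1 was again last, at 0.210 ± 0.0183 and 0.260 ± 0.0980 CPM per kb.

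The genes that varied most like the 9 were sought among the 16812 genes tested in both tables by the Pearson correlation of log2 CPM with the mean of the 9 genes over the 6 libraries of each table, taking the smaller of the 2 values. Ighd, the constant region of IgD, which mature naive B cells carry, stood first (0.985), followed by the actin crosslinker gene Actn1 (0.981), Igkc, the constant region of the kappa light chain (0.963), Pbk (0.958), Tpbgl (0.952), Pon3 (0.951), G3bp1 (0.949), Dis3l (0.941), Ints10 (0.941) and P2ry6 (0.939). In all, 31 genes lay above 0.9. The first 10 by Spearman's rho, with ties broken by identifier, shared 0 genes with these 10, although G3bp1 tied for rank 10 (0.886). The ranking thus depended on the measure. With 6 libraries in 2 groups these values mainly follow the difference between groups, and libraries share their depth and sort. Of the 9 genes themselves, Cd79b had a correlation of −0.97 with the mean in the AMPK-KO and WT libraries and of 0.88 in the others.

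Since Ighd was found by its likeness to the 9 genes in these libraries, its values are likewise a description. It had 567, 507 and 581 counts in WT and 86, 63 and 53 in AMPK-KO TAMs, or 11.7% of the WT level (95% interval 10.1% to 13.6%). Its log2 fold change was −3.08 (SE 0.22), beside −3.10 for Ms4a1, and 0.85 (SE 0.22) between stages. Like 8 of the 9 genes it was lowest among late-stage libraries in replicate 1, with 670 counts against 1205 and 1181.

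Other genes of the lineage were taken from lists that are no part of the 9. Of 16 further genes listed as B cell-restricted, 15 were tested in AMPK-KO against WT TAMs, and 3 rose and 4 fell. Their median log2 fold change was −0.34, beside −0.0037 over all genes and −3.10 over the 9. Those named here ran from 1.31 CPM for Pou2af1 to 32.8 CPM for Cd22, 44.4 CPM for Tnfrsf13b and 343.8 CPM for Cd72 in WT TAMs. Cd79a had 5.13 CPM there. Which cells the reads of this list came from was not tested. Fcmr, the IgM Fc receptor, had 254, 269 and 267 against 0, 7 and 4 counts (adjusted p = 1.68e-05). Pou2af1, the coactivator of octamer factors, and Blk, a cytoplasmic Src-family kinase, fell by 3.77 (adjusted p = 0.00458) and 2.26 (adjusted p = 0.000945) on the log2 scale. In the other direction, Cd72 (0.69, adjusted p = 4.32e-06), Fcrl5 (1.34, adjusted p = 5.22e-06) and H2-Ob (0.61, adjusted p = 0.0027) rose, as Cd79b was higher. The value was 0.02 (adjusted p = 0.92) for Cd22, which restrains receptor signaling, and 0.16 (adjusted p = 0.175) for Tnfrsf13b. The 3 genes that rose had 2637 to 77543 summed counts in WT TAMs, and Pou2af1, Blk and Fcmr had 298 to 790. Tnfrsf13b (10018) and Cd22 (7406) also had many WT counts but were called in neither direction. Among the 9 genes Cd79b had the most WT counts (3491). Whether level and direction are related was not tested.

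In late-stage TAMs 3 of the 16 genes rose and 0 fell with edgeR (1 lower with DESeq2 and 1 at an unadjusted p under 0.05), with a median log2 fold change of 0.40 beside 0.82 over the 9 genes and 0.0027 over all genes. Cd72 (0.69, adjusted p = 0.00121) and Fcrl5 (1.10, adjusted p = 0.000132) rose as in AMPK-KO TAMs. Blk (0.99, adjusted p = 0.0509) and Pou2af1 (0.81, adjusted p = 0.0549) did not pass the test.

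**Figure D4:**
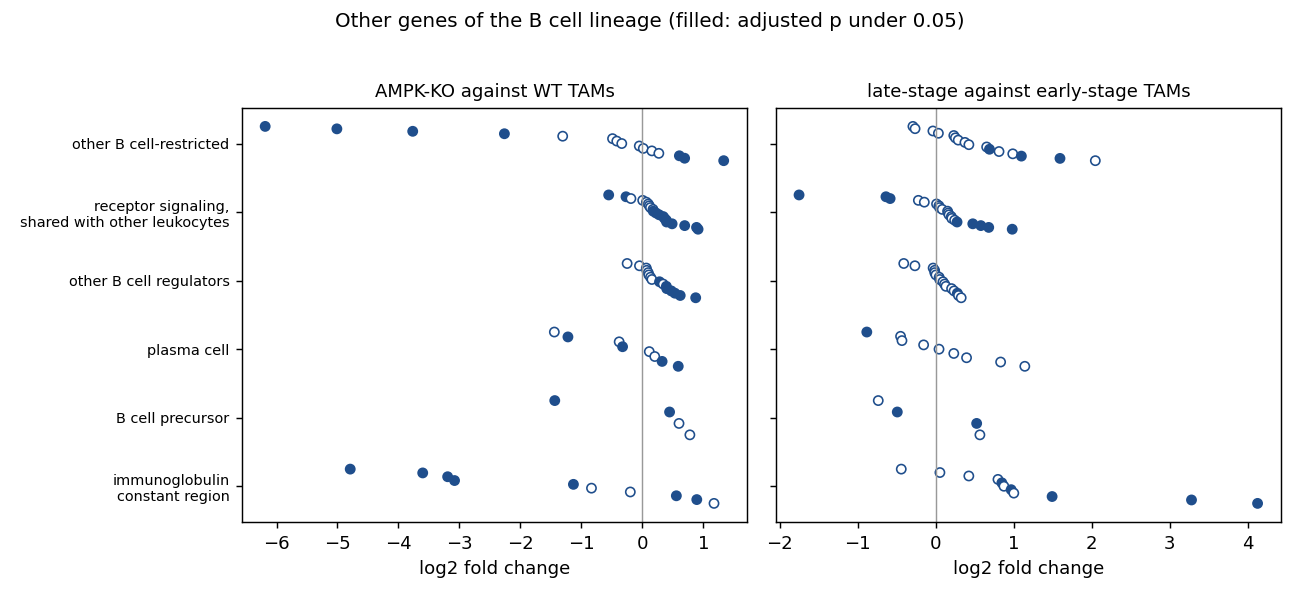
Log2 fold change of genes in 6 lists of the B cell lineage in AMPK-KO against WT TAMs (left) and in late-stage against early-stage TAMs (right), 1 point per gene, filled where the edgeR adjusted p is under 0.05; genes with 3 counts or fewer in a group are left out. In the first list 4 genes fell and 3 rose on the left, and 3 rose on the right.

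Genes listed around receptor signaling, not all of which carry the signal, are shared with other leukocytes and mostly did not fall as Cd79a did. Of 20 such genes, 11 rose and 2 fell in AMPK-KO TAMs (median log2 fold change 0.20). Malt1 (0.89, adjusted p = 5.3e-05), a protease of NF-κB signaling, Cd40 (0.70, adjusted p = 9.25e-05) and the phosphatase gene Ptpn6 (0.40, adjusted p = 0.000114) were among those that rose. Cd81, a tetraspanin gene, fell by 0.27 (adjusted p = 0.00298) and Rasgrp3 by 0.55 (adjusted p = 0.0112). In late-stage TAMs 5 of the 20 rose, among them Cd81 (0.68, adjusted p = 0.000526) and the adaptor gene Blnk (0.47, adjusted p = 0.00511), and 3 fell, led by Cd38 (−1.75, adjusted p = 1.72e-05) and Fcgr2b (−0.64, adjusted p = 0.000625).

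Regulators other than Pax5, Spib and Ebf1 mostly had higher values in AMPK-KO TAMs. With edgeR, 7 of 16 rose and 0 fell (1 lower with DESeq2 and 1 at an unadjusted p under 0.05), with Irf8 (0.40, adjusted p = 9.53e-05), Ikzf1 (0.48, adjusted p = 0.000128), Pou2f2 (0.54, adjusted p = 0.000148) and Ikzf3 (0.88, adjusted p = 0.000697) first. Most of them are also expressed in myeloid cells or T cells, and Spi1, which encodes PU.1, the relative of SPIB, had 481.9 ± 22.9 CPM in WT against 3.14 CPM for Spib. The median log2 fold change of the 16 was 0.22. In late-stage TAMs Runx1 (0.28, adjusted p = 0.027) rose and 0 fell (2 lower with DESeq2 and 2 at an unadjusted p), and leaving out early-stage replicate 2, late-stage replicate 1 or late-stage replicate 2 left 0 genes of the list past the test. Without late-stage replicate 3, 0 rose and 1 fell, so the call of Runx1 did not hold.

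Immunoglobulin genes followed the 9 in part. Of 11 constant region genes tested in AMPK-KO TAMs, 6 fell and 2 rose, with a median log2 fold change of −1.13. Igha fell by 4.79 (adjusted p = 2.44e-06) and Iglc2 by 3.19 (adjusted p = 0.00136). Ighd (−3.08) and Igkc (−1.13) are also among the 6, but both were found by their likeness to the 9 genes. Where these 2 follow the 9, this is therefore a description. Ighm (0.56, adjusted p = 2.25e-05) and Ighg2b (0.89, adjusted p = 0.0186) rose, and Ighm had 8126 to 8788 counts in WT and 12097 to 13453 in AMPK-KO TAMs. In late-stage TAMs 5 of 11 rose and 0 fell (median 0.87, and 0 lower with DESeq2 or at an unadjusted p), with Ighg2c (3.28, adjusted p = 1.15e-05), Ighm (0.97, adjusted p = 0.000145), Ighg2b (1.49, adjusted p = 0.00221) and Ighg3 (4.13, adjusted p = 0.00739) first. The lambda and the gamma constant regions are close copies of each other, so reads may have been split among them.

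Plasma cell and precursor genes gave no common direction. Of 8 plasma cell genes tested in AMPK-KO TAMs, Prdm1 (0.59, adjusted p = 0.000927) and Sdc1 (0.32, adjusted p = 0.00796) rose and Txndc5 (−0.32, adjusted p = 0.00198) and Fkbp11 (−1.22, adjusted p = 0.0396) fell, while in late-stage TAMs edgeR called Sdc1 lower (−0.88, adjusted p = 0.000145) and 0 higher (1 higher with DESeq2 and 2 at an unadjusted p under 0.05). Of the 8 precursor genes 4 were tested. Il7r rose (0.45, adjusted p = 0.000458) and Lef1 fell (−1.44, adjusted p = 0.0134) in AMPK-KO TAMs, and both had the opposite sign in late-stage TAMs (−0.49, adjusted p = 0.011, and 0.52, adjusted p = 0.0208). Both are also T cell genes. Igll1 and Rag2 had 0 counts in all 12 libraries and Rag1 had 4 counts in 1 late-stage library, while Vpreb1 had 0 to 20 and Dntt 4 to 30 counts per library.

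Markers of other cells moved with the 9 genes or against them, and their part in the levels of the 9 was not tested. In AMPK-KO TAMs 9 of 10 T cell markers rose, from a sum of 133.7 to 150.8 CPM in WT to 237.4 to 241.2 CPM, and 8 of 8 conventional dendritic cell markers rose, from 108.3 to 118.7 to 179.5 to 184.8 CPM. These 2 lists ran opposite to the 7 lower B cell genes, and the reason was not tested. Of the 4 follicular dendritic cell markers tested of 7, 2 fell and 0 rose (34.9 to 39.8 CPM in WT and 27.7 to 32.5 CPM in AMPK-KO TAMs), and the other 3 had at most 14 counts in a library. Of 9 plasmacytoid dendritic cell markers tested of 10, 4 rose and 2 fell, so the list gave no common direction. Among those that fell was Ly6d, which B cells also express and which is named after its values were seen. It had 69, 41 and 94 counts in WT and 0, 7 and 4 in AMPK-KO TAMs (adjusted p = 0.00353). Siglech, the defining marker of plasmacytoid dendritic cells, had 19 to 49 counts per library. Of 8 fibroblast or pericyte markers 5 rose and 1 fell. Of the 10 macrophage markers 2 rose and 2 fell, with a median log2 fold change of −0.083. Over all genes tested, 11.3% rose and 9.78% fell.

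In late-stage TAMs, where the 9 genes had higher means, 5 of 10 T cell markers rose and 0 fell (8 and 0 with DESeq2, 214.8 to 235.3 CPM in early-stage and 272.4 to 314.9 CPM in late-stage TAMs). Of the 4 follicular dendritic cell markers tested, 1 rose and 0 fell (1 lower at an unadjusted p under 0.05). Their median log2 fold change was −0.032, and the list summed to 57.97 to 64.55 CPM in early-stage and 46.4 to 64.52 CPM in late-stage TAMs. The 1 that rose was the chemokine gene Cxcl13, named after its values were seen. It had 43, 21 and 12 counts in early-stage and 236, 403 and 325 in late-stage TAMs (log2 fold change 3.65, SE 0.44, adjusted p = 0.000882). Its part in the levels of the 9 genes was not tested. Of the macrophage markers, 1 of 10 rose and 0 fell (2 lower at an unadjusted p, 0 with DESeq2). Of the plasmacytoid dendritic cell markers, 2 of 9 rose and 0 fell. For conventional dendritic cell markers 1 of 8 rose and 2 fell, and for fibroblast or pericyte markers 1 of 8 rose and 3 fell. Over all genes tested, 4.31% rose and 4.88% fell.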

How the data were processed

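Bulk RNA-seq of 12 TAM samples was analysed. Reads had been aligned by HISAT2 and assigned to genes by featureCounts, with versions not given in the sources used here, and the authors deposited the raw counts in 2 tables of 6 samples. The methods write GRCh38 for the mouse genome, whereas per the labels the build was mm10 or GRCm38, and 54349 of 55401 identifiers match GENCODE M21 with their version. Positions are from that annotation, and for Cr2, whose version did not match, from RefSeq. 0 columns were left unused.

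Each table was filtered with filterByExpr, scaled by TMM and fitted by edgeR 4.0.16 (glmQLFit, glmQLFTest) in R 4.3.3, with Benjamini-Hochberg adjustment over all genes tested. Levels are CPM with SD over 3 samples. The SE of a log2 fold change is its absolute value divided by the square root of the quasi-likelihood F statistic, so it is derived from the test. Intervals of count ratios are exact binomial, at 95%, and cover counting error only. Likeness used log2 CPM with a prior count of 2. The fit was tested on simulated data. Python 3.11.15, scipy 1.17.1 and matplotlib 3.10.9 were used for the rest.

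The 9 genes and the lists were chosen with earlier results of these data known. Named are the 9 genes, from each list the 4 with the highest mean CPM and the 4 higher and 4 lower with the smallest p past the threshold, as far as the text needs them, the 10 genes most alike, and Prkaa1, Lyz2 and the Y-linked genes as checks. Ly6d, Cxcl13, Siglech, Igll1, Vpreb1, Rag1 and Rag2 are named after their values were seen. Some genes that the rule covers count in the lists but are not reported here. Alternatives were RLE size factors, DESeq2 1.42.0, a filter of only 1 count or of 10 counts per library, a replicate block, and the omission of single libraries.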

Additional observations from a re-analysis of the deposited data

How the results depend on the processing

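The log2 fold changes of the 9 genes kept their sign in both comparisons under every alternative computed. Of 194 such values, 192 moved by less than the larger of the 2 within-group SDs of log2 CPM. This is a wide measure: the value of Fcrla in AMPK-KO against WT TAMs ran from −0.996 to −0.262 without a library and did not count as moved. The 2 that moved were those of Cr2 without AMPK-KO replicate 2 and of Pax5 without AMPK-KO replicate 3, where the remaining AMPK-KO libraries had 0 counts. Requiring at least 10 counts in every library removed Cr2, Fcer2a, Cd79a and Pax5 from the AMPK-KO comparison. At 0 to 45 counts per AMPK-KO library, counting error and 3 samples per group limit the precision of the lowest genes.

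Leaving out a library gave 2414 (WT replicate 3) to 4039 (WT replicate 1) genes called in AMPK-KO against WT TAMs, beside 3693, and 2419 without AMPK-KO replicate 2. For late-stage against early-stage TAMs, with 1619 genes, it gave 653 (late-stage replicate 2) to 2835 (early-stage replicate 1), with 680 without early-stage replicate 2, 853 without late-stage replicate 1 and 682 without late-stage replicate 3, while DESeq2 called 2650 genes and dropping the filter left 936 genes. Other B cell-restricted genes called between stages numbered 3, but 6 with DESeq2, 5 with at least 10 counts and 3 to 4 without a library. Receptor signaling genes numbered 8, and 5 (without early-stage replicate 2) to 11 (without early-stage replicate 1). Other regulators numbered 1, but 5 with DESeq2 and 0 (without early-stage replicate 2, late-stage replicate 1 or late-stage replicate 2) to 3 (without early-stage replicate 1). The causes were not tested.

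Replicate numbers gave no sign of pairing. After the group mean of each gene was subtracted, the deviations of same-numbered samples correlated by −0.004 to 0.042 in AMPK-KO and WT TAMs. In the stages they correlated by 0.013 to 0.026. With the replicate block, 3862 and 1417 genes were called in the 2 comparisons, and the other B cell-restricted genes called were 7 and 3. Among the other regulators between stages the block gave 0 higher and 1 lower gene, in place of 1 higher and 0 lower.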
